A study of Mus musculus with 2 samples.

Results

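Fshr and Lhcgr, the genes of the follicle-stimulating hormone receptor and of the luteinizing hormone and choriogonadotropin receptor, were examined in open-chromatin maps of the mouse ovary. These 2 genes of 21938 protein-coding genes were taken by name, and every DNase-seq peak was assigned to them that had its centre inside the gene or lay nearest to one of its transcription start sites. That gave 24 of 109169 peaks in replicate 1 and 30 of 114462 in replicate 2. Footprints wholly inside those peaks numbered 36 and 48. The libraries came from ovary tissue of B6CASTF1/J mice, the F1 hybrid of C57BL/6J and CAST, which were female and 36 days old and carried no engineered allele or treatment that the labels name. There is 1 group of 2 libraries. Each was taken as 1 animal, because the descriptions give the females different numbers and separate biosample entries, but both entries name the same donor, so a shared animal cannot be told apart from 2 animals by that field. The libraries could not be tested against each other, and values are given for each library or as mean ± SD of the 2. The labels used here do not state the stage of the oestrous cycle or whether 1 or both ovaries were used.

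DNase-seq maps the places where the enzyme DNase I cuts DNA, which are open stretches not wrapped in nucleosomes. A peak marks such a stretch, and a footprint is a short protected run of bases inside it. Whole ovary mixes many cell types, so a site open in fewer cells and a site less open in each cell cannot be told apart. Both receptors belong to the leucine-rich repeat family of G protein-coupled receptors and act mainly through Gs, adenylyl cyclase and cyclic AMP. In the ovary the follicle-stimulating hormone receptor is known from granulosa cells, where it drives follicle growth and estrogen synthesis. The luteinizing hormone receptor is known from theca cells, luteal cells and the mural granulosa cells of large follicles, where it drives androgen synthesis and ovulation.

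Both genes lie on the minus strand of chromosome 17 on mm10. Lhcgr (ENSMUSG00000024107.7) spans chr17:88716481-88791990, which is 75.5 kb with 11 exons and 4 annotated start sites. Fshr (ENSMUSG00000032937.5) spans chr17:88984952-89200675, which is 215.7 kb with 10 exons and 1 start site. The gap between the genes is 193.0 kb and holds no other protein-coding start site. On the far side of Fshr the next protein-coding start site, that of Gm10184, lies 709.8 kb upstream.

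The sequences at the start sites are shown first, because the promoter comparison rests on them. All are on the gene's strand, 5′ to 3′, from GRCm38.p6, which is the C57BL/6J reference, so the CAST copy that each animal also carries is not shown. Capitals mark bases inside a footprint of either library, whether or not that footprint lies in a peak. The first pair is the 250 bases before each start site of RefSeq, at chr17:89200676-89200925 for Fshr and chr17:88792015-88792264 for Lhcgr.
Fshr upstream of start: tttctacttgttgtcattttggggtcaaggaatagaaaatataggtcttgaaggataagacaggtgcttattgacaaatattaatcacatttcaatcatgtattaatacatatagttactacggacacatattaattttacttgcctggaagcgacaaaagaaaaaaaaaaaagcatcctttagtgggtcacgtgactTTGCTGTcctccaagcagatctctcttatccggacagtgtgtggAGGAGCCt
Lhcgr upstream of start: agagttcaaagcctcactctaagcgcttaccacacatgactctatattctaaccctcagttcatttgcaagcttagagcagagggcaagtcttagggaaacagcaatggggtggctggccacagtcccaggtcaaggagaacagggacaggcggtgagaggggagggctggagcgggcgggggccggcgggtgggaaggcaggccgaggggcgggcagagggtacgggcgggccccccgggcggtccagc
The second pair is the stretch just downstream, where the peaks lay. For Fshr it is the whole replicate 1 peak, chr17:89200541-89200620. For Lhcgr it is the replicate 1 peak from the start codon inward, chr17:88791741-88791971.
Fshr start peak: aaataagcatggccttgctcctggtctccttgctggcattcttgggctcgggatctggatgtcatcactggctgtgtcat
Lhcgr start peak: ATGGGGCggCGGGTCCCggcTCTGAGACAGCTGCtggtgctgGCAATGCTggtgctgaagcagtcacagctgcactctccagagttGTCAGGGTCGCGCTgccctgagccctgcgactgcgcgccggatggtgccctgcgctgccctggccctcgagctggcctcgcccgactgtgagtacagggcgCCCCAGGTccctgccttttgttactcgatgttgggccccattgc
The bases before the Fshr start were 36.8% G or C, and those before the Lhcgr start 63.2%. The Lhcgr stretch held 12 CpG dinucleotides and the Fshr stretch 4. In the window from 250 bases before to 50 bases after the RefSeq start, Lhcgr had 4 GC boxes (GGGCGG on either strand, the letters read by Sp1 and Sp3), which lay between 9.5 and 73.5 bp before the start. GC boxes were found in 35.7% of the 32851 promoters of that table. Fshr had 1 E-box (CACGTG, the letters read by Usf1 and Usf2), 58.5 bp before its start, and an E-box was found in 7.15% of those promoters. No footprint touched the E-box in either library, and no footprint lay in the 250 bases before the Lhcgr start.

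Base composition differed between the promoters, but their ratios of observed to expected CpG were nearly equal. Within 500 bp to either side of the start the ratio of observed to expected CpG was 0.383 at Fshr and 0.382 at Lhcgr, at a GC content of 44.8% and 58.9%. The median ratio was 0.552 over all protein-coding genes, 0.702 over those with a promoter peak in both libraries and 0.162 over those with none. Of the 8785 genes with a ratio under 0.4, 26.9% had a promoter peak in both libraries. Fshr and Lhcgr were both among them.

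A promoter was called open when a peak overlapped the 500 bp to either side of a start site, and its value is that of the highest such peak. Peak values are the signal the authors deposited, on a scale that no source used here states. Both receptor promoters were open in both libraries, as were those of 66.7% of protein-coding genes, and a further 763 genes had a promoter peak in 1 library alone. The Lhcgr promoter value was 3.0 in replicate 1 and 1.62 in replicate 2, or 2.31 ± 0.975 (SD, n = 2). The Fshr promoter value was 0.632 in replicate 1 and 0.491 in replicate 2, or 0.561 ± 0.0997 (SD, n = 2). Lhcgr was the higher in both libraries, and its lower library stood above the higher library of Fshr. Among the 14631 open promoters, whose median value was 5.15, Lhcgr stood at percentile 25.1 and Fshr at percentile 3.64.

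The Lhcgr start had 1 compact peak in each library, chr17:88791741-88792000 in replicate 1 and chr17:88791721-88792000 in replicate 2. Both crossed the annotated start at 88791990, which lies downstream of the RefSeq start used for the printed bases. They ended at the same base, between these 2 starts, and had their centres in exon 1. Their lowest q-values were 1.85e-22 and 4.00e-11. Replicate 1 had 3 footprints there and replicate 2 had 5, and 2 of them overlapped between the libraries. The first of these common footprints covered 88791872 to 88791885 in replicate 1 and 88791876 to 88791885 in replicate 2. The other covered 88791968 to 88791974 and 88791965 to 88791971, at the start codon, and touched a GC box at 88791963 to 88791968.

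The Fshr start looked different in the 2 libraries. In replicate 1 a single peak of 80 bases lay in exon 1, with a lowest q-value of 1.12e-04 and no footprint inside, and a separate peak of value 0.515 lay at chr17:89199395-89199640 in intron 1. In replicate 2 the caller listed 4 overlapping peaks that together ran from 89199361 to 89200740, with values of 0.497, 0.465, 0.491 and 0.425. The widest of them was 1060 bases long, crossed the start site and held the E-box. Overlapping peaks of this kind are 1.59% of all peaks in replicate 1 and 2.24% in replicate 2. Replicate 2 had 10 footprints across this stretch and replicate 1 had 3. The footprint next to the start site, 89200662 to 89200672 in replicate 2, was met by a footprint of replicate 1 that lay outside that library's peak. In the shorter peak lists that the authors also deposited, the Fshr promoter was open in replicate 1 alone, whereas the Lhcgr promoter was open in both with unchanged values.

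**Figure D1:**
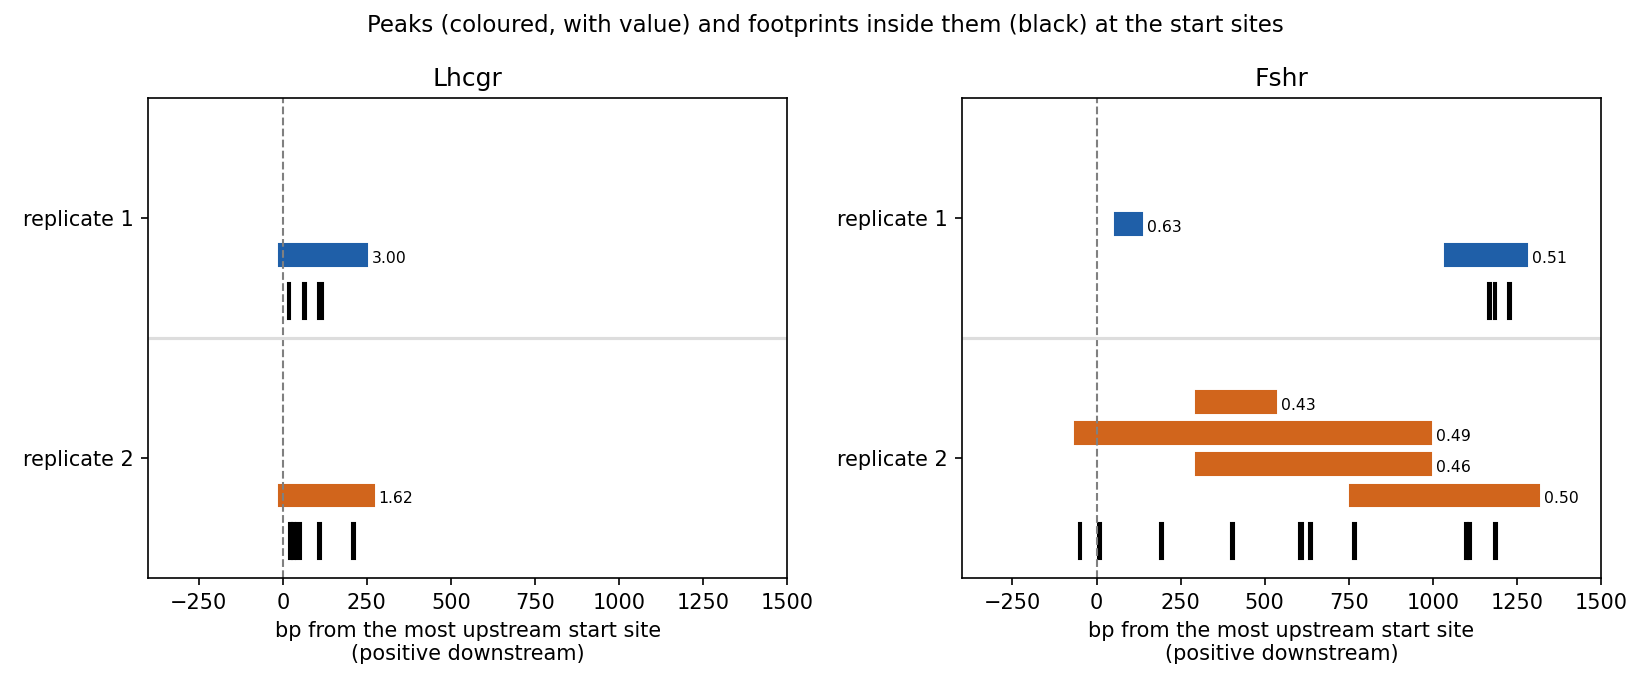
Peaks (coloured bars, each with its deposited value) and footprints inside them (black ticks) around the start sites of Lhcgr and Fshr in each replicate, against the distance from the most upstream start site in bp, positive downstream. Lhcgr has 1 narrow peak per library over its start, while Fshr has 2 separate peaks in replicate 1 and 4 overlapping ones in replicate 2.

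More peaks were assigned to Lhcgr than to Fshr, but fewer of them lay inside the gene. Lhcgr had 16 peaks in replicate 1 and 19 in replicate 2 (17.5 ± 2.12, SD, n = 2), and Fshr had 9 and 11 (10 ± 1.41). The median protein-coding gene had 3 in each library, which put Lhcgr at percentile 93.9 and Fshr at percentile 83.7. Counting only peaks centred inside the gene turned the order, with 5 and 5 for Lhcgr and 6 and 9 for Fshr. These Fshr counts include 2 peaks near its start in replicate 1 and 4 overlapping ones in replicate 2, which merge into a single site. The turned order is therefore one of listed peaks rather than of separate sites. In the shorter peak lists Lhcgr had 8 and 6 peaks and Fshr had 2 and 3. One peak, in intron 8 of Fshr at chr17:88995741-88995870 in replicate 1, counted for both genes, because its nearest start site is that of Lhcgr. The summed peak value was 13.2 and 12.2 for Lhcgr, over 2752 and 3676 covered bases, with a mean of 0.826 and 0.640 per peak. For Fshr the sum was 4.18 and 4.65, over 1255 and 2906 bases, with a mean of 0.465 and 0.423. The replicate 2 sum adds all 4 overlapping peaks at the Fshr start, while covered bases are counted once. By summed value Lhcgr stood at percentile 74.6 of all genes and Fshr at percentile 41.2. The stretch of chromosome from which peaks were assigned was 275.0 kb for Lhcgr and 570.6 kb for Fshr. Lhcgr thus had 5.82 and 6.91 peaks per 100 kb, and Fshr 1.58 and 1.93.

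**Figure D2:**
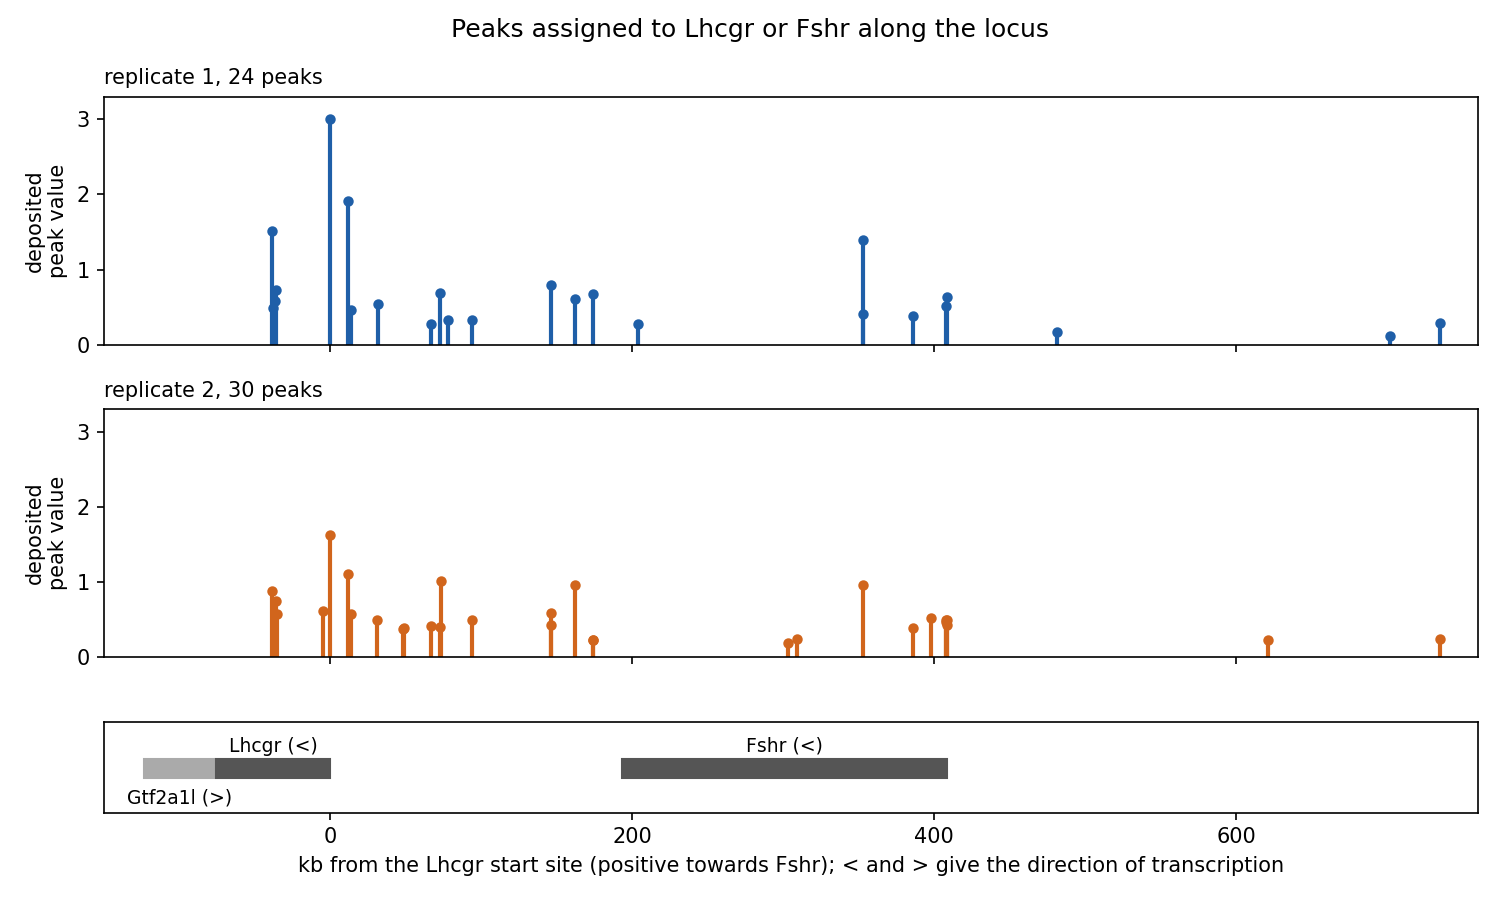
Every peak assigned to Lhcgr or Fshr (vertical lines, deposited value on the y axis) against its distance in kb from the Lhcgr start site, with replicate 1 above, replicate 2 in the middle and the gene models below. Peaks lie in and upstream of Lhcgr, in intron 1 of Fshr and at the start of Fshr, and few lie beyond it.

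The peaks of both genes merged into 34 sites, of which 16 were open in both libraries, 7 in replicate 1 alone and 11 in replicate 2 alone. Over the genome 57.4% of 137126 sites merged in this way were open in both. Lhcgr held 12 of its 23 sites in both, and Fshr 4 of its 12. The shared peaks behind them, 12 in each library for Lhcgr and 5 for Fshr, fell to 8 and 1 when a reciprocal overlap of 50% was asked for, and to 5 and 1 in the shorter peak lists. In replicate 1, 17 of the 24 peaks overlapped a peak of replicate 2, where 75.5% of all peaks did. In replicate 2, 17 of the 30 did, where 71.5% of all peaks did. Most of the peaks were weak, with 20 of 24 in replicate 1 and 23 of 30 in replicate 2 at or under their library's median value of 0.808 and 0.648. Of these weak peaks 13 and 10 were shared, against 56.5% and 49.2% of all peaks at or under the median. None of the 7 unshared peaks of replicate 1 and 1 of the 13 of replicate 2 held a base with a listed q-value in the other library, where 18.2% and 13.7% of all unshared peaks did.

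The gap between the genes held 15 of these sites, and 9 of them were open in both libraries, where 57.4% of all sites were. Every one of the 15 lies nearer to the Lhcgr start than to the Fshr start, so distance alone assigned them to Lhcgr. The strongest was 11.7 kb upstream of Lhcgr, at 1.91 in replicate 1 and 1.11 in replicate 2 (1.51 ± 0.572, SD, n = 2). The next was 73.0 kb upstream, at 0.684 and 1.01 (0.849 ± 0.234). A site 162.3 kb upstream had 0.612 and 0.962 (0.787 ± 0.247), and one 146.0 kb upstream had 0.801 and 0.589 (0.695 ± 0.15). The other shared sites of the gap were 13.4 kb upstream (0.456 and 0.576), 31.2 kb (0.541 and 0.491), 66.9 kb (0.280 and 0.419), 93.9 kb (0.326 and 0.497) and 174.2 kb (0.677 and 0.236).

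Inside Lhcgr 2 intronic sites were open in both libraries. The site in intron 9, 38.7 kb downstream of the start, had 1.52 in replicate 1 and 0.877 in replicate 2 (1.2 ± 0.453, SD, n = 2). The site in intron 7, 36.0 kb downstream, had 0.729 and 0.746 (0.738 ± 0.0117). The other intronic sites of Lhcgr, at 0.488 and 0.580 in replicate 1 and at 0.569 and 0.622 in replicate 2, were each open in 1 library only.

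The strongest Fshr site was not its promoter. It lay in intron 1, 55.7 kb downstream of the start, at chr17:89144841-89145140, with 1.39 in replicate 1 and 0.962 in replicate 2 (1.17 ± 0.301, SD, n = 2). Its lowest q-values were 3.34e-12 and 1.92e-04, and in both libraries it was above the Fshr promoter. A second intron 1 site, 22.7 kb downstream, had 0.378 and 0.393, and another, 10.7 kb downstream, had 0.517 in replicate 2 and no peak in replicate 1. Upstream of Fshr 4 weak sites were listed over the whole interval that is nearest to its start. One of them, 326.4 kb upstream, was open in both, at 0.293 and 0.242. The remaining 3 had 0.176, 0.229 and 0.111 in a single library each.

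The 2 libraries did not differ by 1 common factor at these sites. Over 79447 pairs of peaks the log2 ratio of replicate 2 to replicate 1 had a median of -0.41 with an SD of 0.49, and at open promoters the median was -0.88 with an SD of 0.39. The Lhcgr promoter matched the promoter median, with a difference of -0.00 from it, and the Fshr promoter was 0.52 above it. Of the 16 shared sites 9 were lower in replicate 2, and 6 had a ratio under the median of all pairs. Relative to that median the sites 66.9, 73.0, 93.9 and 162.3 kb upstream of Lhcgr were 0.99, 0.98, 1.02 and 1.06 higher on the log2 scale in replicate 2. The site 174.2 kb upstream was lower by the same measure, at -1.11. Animal and library preparation cannot be told apart.

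**Figure D3:**
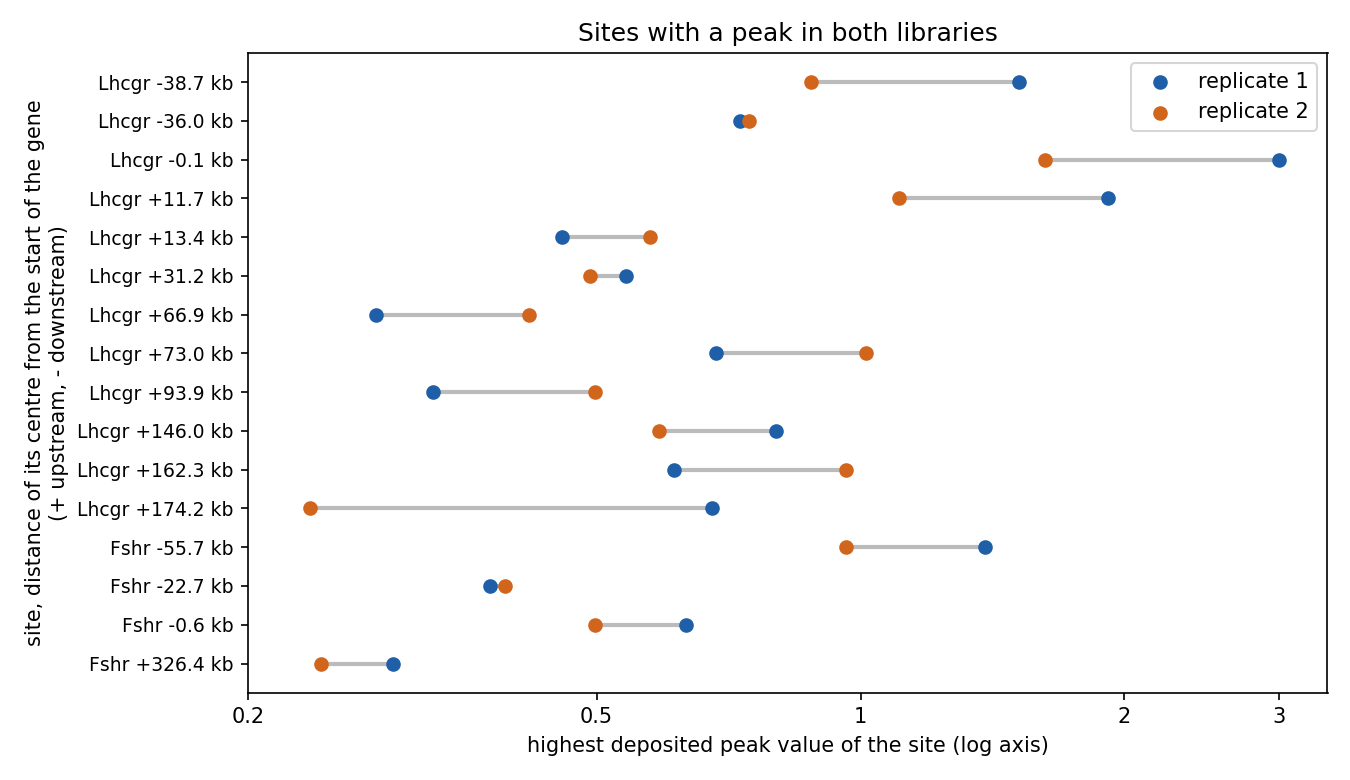
Highest deposited peak value (log axis) of each of the 16 sites open in both libraries, listed by gene and distance of the site's centre from the start in kb (positive upstream), with a dot for each replicate and a line joining them. Replicate 1 is higher at the Lhcgr promoter, at the site 11.7 kb upstream and at the strongest Fshr site, and replicate 2 is higher at 7 of the 16 sites.

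The distal sites with a mean value of at least that of the site 146.0 kb upstream of Lhcgr are printed here. They were chosen after their values were seen, and some of the footprints and motif matches described next lie in them. Each printed stretch is the replicate 1 peak on the gene's strand, with capitals as above. In the order printed they are chr17:88803541-88803720, chr17:88753201-88753360, chr17:88864741-88864960, chr17:88954161-88954320, chr17:88755821-88756020 and chr17:88937881-88938060 for Lhcgr, and chr17:89144881-89145140 for Fshr.
Lhcgr 11.7 kb upstream: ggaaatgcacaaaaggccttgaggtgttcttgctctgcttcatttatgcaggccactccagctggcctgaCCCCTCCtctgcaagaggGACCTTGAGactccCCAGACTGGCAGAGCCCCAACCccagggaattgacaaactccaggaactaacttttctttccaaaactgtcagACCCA
Lhcgr intron 9: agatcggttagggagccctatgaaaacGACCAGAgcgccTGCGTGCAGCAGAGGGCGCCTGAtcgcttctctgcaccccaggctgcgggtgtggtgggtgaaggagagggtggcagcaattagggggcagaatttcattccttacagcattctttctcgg
Lhcgr 73.0 kb upstream: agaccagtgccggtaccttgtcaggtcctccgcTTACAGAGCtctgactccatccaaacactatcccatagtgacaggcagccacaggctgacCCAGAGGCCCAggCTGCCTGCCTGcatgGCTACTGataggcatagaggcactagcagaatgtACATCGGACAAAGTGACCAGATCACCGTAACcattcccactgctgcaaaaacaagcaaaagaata
Lhcgr 162.3 kb upstream: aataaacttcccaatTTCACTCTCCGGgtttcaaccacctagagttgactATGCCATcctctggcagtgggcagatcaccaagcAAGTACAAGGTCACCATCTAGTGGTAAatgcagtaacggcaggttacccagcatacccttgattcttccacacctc
Lhcgr intron 7: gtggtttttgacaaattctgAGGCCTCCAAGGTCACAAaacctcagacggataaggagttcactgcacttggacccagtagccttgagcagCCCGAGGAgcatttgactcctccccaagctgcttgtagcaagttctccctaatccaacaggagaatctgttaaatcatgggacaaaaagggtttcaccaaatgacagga
Lhcgr 146.0 kb upstream: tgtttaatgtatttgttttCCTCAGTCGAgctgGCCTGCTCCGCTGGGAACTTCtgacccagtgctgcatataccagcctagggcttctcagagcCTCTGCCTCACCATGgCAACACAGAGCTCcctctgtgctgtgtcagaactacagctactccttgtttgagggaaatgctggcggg
Fshr intron 1: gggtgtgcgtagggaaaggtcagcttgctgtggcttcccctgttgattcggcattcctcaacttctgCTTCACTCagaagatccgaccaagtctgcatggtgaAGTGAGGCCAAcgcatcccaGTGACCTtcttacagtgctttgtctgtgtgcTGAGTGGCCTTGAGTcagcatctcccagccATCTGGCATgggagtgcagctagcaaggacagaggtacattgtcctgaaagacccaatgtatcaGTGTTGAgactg

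Footprints were 7 to 27 bases wide. At least 1 footprint lay in 17 of the 24 peaks of replicate 1 and 20 of the 30 of replicate 2, where 81.2% and 78% of all peaks held one. Of the footprints in shared peaks, 13 of 28 in replicate 1 and 12 of 43 in replicate 2 overlapped a footprint of the other library, where 54.8% and 58.4% of all such footprints did. In the weak shared peaks 8 of 17 and 7 of 22 overlapped, against 33.9% and 33.9% over all peaks at or under the median. Lhcgr held most of the common footprints, with 12 of its 28 footprints in replicate 1 and 10 of its 32 in replicate 2 overlapped, while Fshr had 1 of 9 and 2 of 16. The strongest Fshr site had 3 footprints in each library and none in common. At the site 11.7 kb upstream of Lhcgr a footprint of 22 bases in replicate 1, 88803597 to 88803618, contained one of 7 bases in replicate 2.

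The widest footprint lay 162.3 kb upstream of Lhcgr, 88954210 to 88954236 in replicate 2, and covered the NR5A motif CAAGGTCA at 88954224 to 88954231. These letters are read by steroidogenic factor 1 (Nr5a1) and liver receptor homolog 1 (Nr5a2), nuclear receptors that act on steroidogenic genes. The NR5A match takes up 8 of the 27 bases of the widest footprint, whose other bases were searched for fixed letters only. A footprint of replicate 1, 88954218 to 88954224, shared only the end base 88954224 with this match. The same motif stood at 88755986 to 88755993 in intron 7 of Lhcgr, where a replicate 2 footprint touched it, and in the site 93.9 kb upstream, where none did. In windows of 150 bases around peak centres, 3 of the 17 windows of these shared sites held the motif, against 2.36% of 82466 such windows in all. All 3 belonged to Lhcgr, and no Fshr site held these exact letters. Variants of them were not searched for, so the Fshr sites cannot be taken to lack NR5A-like letters. The 17 windows are those of the shared peaks of replicate 1, and 2 of them lie at the Fshr start, so they are not independent. A match describes letters rather than a bound factor.

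Searches for 15 motifs on both strands of the 16 shared sites, 5209 bases in all, gave 21 matches in 12 sites. A footprint touched 5 of the matches, and 2 were touched in both libraries, namely the GC box at the Lhcgr start and the NR5A match 162.3 kb upstream. In replicate 1 the footprint met each of these 2 matches at its end base only. AP-1 letters (TGANTCA), read by Fos and Jun proteins, were found in 3 of the whole sites and touched a replicate 2 footprint in the strong intron 1 site of Fshr and 66.9 kb upstream of Lhcgr. GATA letters (AGATAA) and RUNX letters (TGTGGTT) were found in 3 whole sites each, TEAD letters (GGAATG) in 4 and the GC box in 3. Whole sites are longer than the windows of 150 bases, and in those windows AP-1 was found in 2 of 17 and GATA, RUNX, TEAD and the GC box in 1 of 17 each. Over all windows the shares were 4.90% (AP-1), 4.82% (GATA), 2.61% (RUNX), 8.20% (TEAD) and 21.2% (GC box). The CTCF core was searched with a fixed consensus, which was found in the window of the site 174.2 kb upstream of Lhcgr, and in 7.85% of all windows. Variants of that consensus were not searched for, so the other sites, among them the one with the widest footprint, cannot be taken to lack CTCF-like letters. The forkhead letters (TGTTTAC), the cAMP element (TGACGTCA), the C/EBP letters (TTGCGCAA and TTGCACAA), the SMAD letters (GTCTAGAC), the estrogen receptor element, the nuclear receptor half-site repeat and the NFI site had no match. In all windows their shares were 1.75%, 0.757%, 0.755%, 0.132%, 0.122%, 0.0182% and 0.13%. No 2 matches of different motifs overlapped. GC content of the 16 sites ran from 45.5% to 67.1% with a median of 49.8%, against a median of 56.0% over all windows.

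The other genes of the gonadotropin pathway were read at their promoters in 7 lists. Of the 73 listed genes other than the receptors themselves, 67 were open in both libraries, which is 91.8% against 66.7% of all protein-coding genes. The lists were chosen by hand with earlier results of these data known, so this share describes the listed genes only. The 6 without a promoter peak in either library were the 4 hormone subunit genes and 2 receptors. Cga, the shared alpha subunit, and Fshb, Lhb and Tshb, the beta subunits of follicle-stimulating, luteinizing and thyroid-stimulating hormone, are pituitary genes, and 0 of the 4 were open. Of the 8 leucine-rich repeat hormone receptors 6 were open, and Rxfp1 and Rxfp2, the relaxin and insulin-like peptide 3 receptors, were not. In this family Lgr4, an R-spondin receptor, had 11.2 ± 5.74, Tshr, the thyrotropin receptor, 4.88 ± 1.71, Lhcgr 2.31 ± 0.975 and Fshr 0.561 ± 0.0997 (SD, n = 2 for each). Lgr5 and Lgr6, which also bind R-spondins, had 1.74 ± 0.654 and 1.28 ± 1.00. All 6 open receptors were in the order Lgr4, Tshr, Lhcgr, Lgr5, Lgr6 and Fshr in both libraries. The means of Lhcgr and Lgr5, of Lgr5 and Lgr6, and of Lgr6 and Fshr each differed by less than the pair's larger SD. Fshr was the lowest of the 6 in both.

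Downstream of the receptors, 18 of 18 genes of receptor coupling and cyclic AMP were open, with a median value of 6.31. Gna11, a Gq-class alpha subunit, had 18.6, Creb1, the cyclic AMP-responsive transcription factor, 12.1, and Prkaca, the catalytic subunit of protein kinase A, 11.3. All 6 genes of receptor desensitisation were open, with a median of 11.4. They were led by Arrb2, a beta-arrestin, at 13.6, Grk6, a receptor kinase, at 12.9 and Rgs2, a regulator of G protein signalling, at 11.4. All 15 transcription factors known to act on the receptor promoters were open, with a median of 4.66 and with Sp3 at 10.2, Sp1 at 9.37 and Usf1 at 8.20. The receptors' own promoters were lower than the median of each of these 3 lists.

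By their medians, targets of the hormones were closer to the receptors in value than those 3 lists were. Every follicle-stimulating hormone target was still above Fshr by mean, the lowest at 0.917. All 10 follicle-stimulating hormone targets were open, with a median of 2.80, and the highest were Nppc, the C-type natriuretic peptide precursor, at 4.64, Inhba, the inhibin beta A subunit, at 4.53 and Igf1r, the insulin-like growth factor 1 receptor, at 4.06. All 14 luteinizing hormone targets were open, with a median of 1.82. Scarb1, a receptor for high-density lipoprotein, had 7.04, Cebpb, a transcription factor of luteinization, 6.85, and Edn2, the ovulatory endothelin, 5.83. Over the listed genes the promoter values nearest to those of Lhcgr in both libraries, by the sum of absolute log2 differences, were those of Nr5a2 (0.0510), Fst, which encodes follistatin (0.0912), and the transcription factor gene Runx2 (0.262). Those nearest to Fshr were those of the smooth muscle actin gene Acta2 (0.279), the testis transcription factor gene Dmrt1 (0.472) and the hyaluronan synthase gene Has2 (0.473). With only start sites of coding transcripts, a choice added after the data were seen, 65 of the 73 were open, against 65.6% of 21853 genes: the aromatase gene Cyp19a1 then had no promoter peak and the phosphodiesterase gene Pde3a had one in replicate 1 only.

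**Figure D4:**
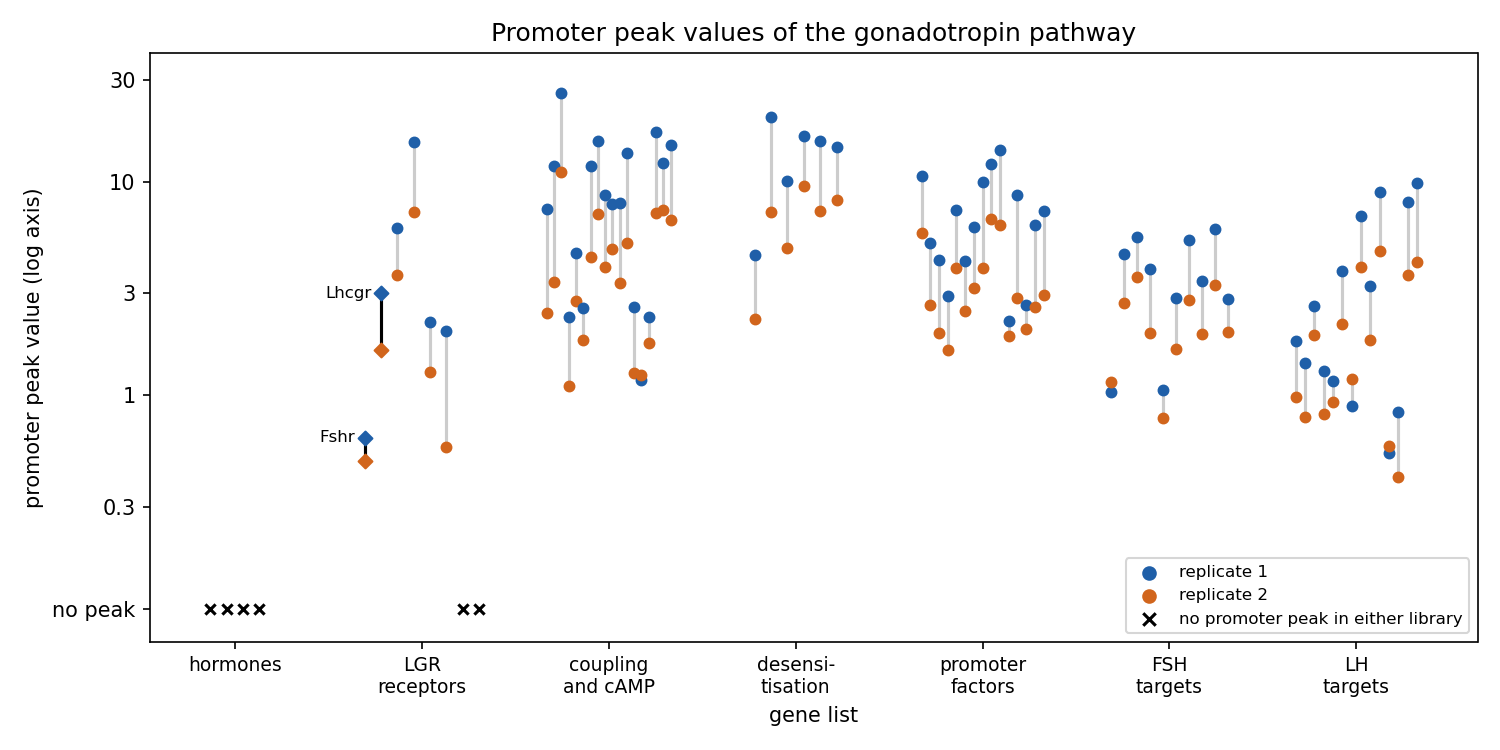
Promoter peak value (log axis) of each gene in the 7 pathway lists, with a dot for each replicate joined by a line, diamonds for Fshr and Lhcgr, and crosses for genes without a promoter peak in either library; LGR stands for the leucine-rich repeat receptor family. The 4 hormone genes and 2 receptors sit at no peak, and Fshr is the lowest of the 6 open receptors.

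The neighbouring genes place the receptors in their surroundings. Gtf2a1l, on the plus strand and converging on the 3′ end of Lhcgr, had a promoter value of 2.82 in replicate 1 and 1.5 in replicate 2 (2.16 ± 0.934, SD, n = 2). That mean is within 1 SD of Lhcgr, and Gtf2a1l was a little below Lhcgr in both libraries. Ston1, next to Gtf2a1l, had 3.54 ± 1.33. Gm10184, upstream of Fshr, had no promoter peak. The Fshr value was below those of Gtf2a1l and Ston1 in both libraries.

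Marker genes were read to check the tissue, against the 66.7% of all protein-coding genes that were open. Promoters were open in both libraries for 8 of 8 granulosa markers, 5 of 7 theca and luteal markers and 5 of 5 markers of stroma and smooth muscle. For the other cell types these were 2 of 4 endothelial, 1 of 5 oocyte, 1 of 4 lymphocyte, 2 of 3 Sertoli, 0 of 3 hepatocyte and 0 of 4 pituitary gonadotrope markers. The shares of the theca and luteal and of the Sertoli markers are close to that of all genes, and with so few genes a list the counts describe these promoters only. The oocyte and lymphocyte markers, Gdf9 and Cd2, were not open by start sites of coding transcripts, and 7 of the 8 granulosa markers were. The part of cell composition in the receptor values was not tested.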

How the data were processed

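DNase-seq of ovary was deposited for 2 libraries, each taken as 1 mouse, as peaks, footprints and false discovery rates on mm10, per the labels, and intervals were called for each library separately, per the file descriptions. No source used here names the aligner, the callers or their thresholds. Peak values are a signal deposited by the authors with no stated scaling. They were whole multiples of 1 step (0.00651 and 0.00654) in 100% of peaks within a tolerance of 0.05 of a step, and a median peak had 124 steps in replicate 1 and 99 in replicate 2; that a step is 1 read was not shown, so read depth is unknown. The authors deposited q-values per base, listed only when low. Each footprint line carries a deposited score of 0.01, so positions alone were used.

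The longer of the 2 peak lists of each library (109169 and 114462 peaks, against 66549 and 68552) was used with GENCODE M21 start sites of all transcripts of protein-coding genes. Overlaps needed at least 1 base. Python 3.11.15, numpy 2.4.6, matplotlib 3.10.9 and bedtools 2.31.1 were used, and assignment was tested on simulated peaks. The genes, 7 pathway lists, 9 marker lists and 15 motifs were chosen with earlier results of these data known. Named from each list were the 3 highest promoters and all genes without one, with the chromosomal neighbours and the 3 genes nearest in promoter values; 1 neighbour is not reported here. Alternatives covered the peak list, start sites, overlap, promoter width and each library left out.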

Additional observations from a re-analysis of the deposited data

How the results depend on the processing

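No paired analysis was possible because there is 1 group. Promoter values did not change with the most upstream start site or with start sites of coding transcripts only (the latter chosen after seeing the data), and with a promoter of 1000 bp Fshr had 0.565 and Lhcgr an equal value. Results below are means of the libraries. The shorter peak lists, which hold fewer peaks, gave Fshr 2.5 peaks, 1 shared peak, 3 footprints and a summed value of 2.00, and gave Lhcgr 7 peaks, 5 shared peaks, 18 footprints and a summed value of 7.87. No mean Fshr promoter value could be given there, since replicate 2 had no promoter peak. Counting only peaks centred in the gene left Lhcgr with 5 peaks and 3 shared peaks, under the 7.5 and 4 of Fshr. Those Fshr counts hold several peaks of the same merged site at its start. A reciprocal overlap of 50% left Fshr with 1 shared peak and Lhcgr with 8. Shared peaks alone summed to 2.89 for Fshr and 10.3 for Lhcgr. With either library left out, Fshr had 9 to 11 peaks, 9 to 16 footprints, a promoter value of 0.491 to 0.632 and a sum of 4.18 to 4.65; Lhcgr had 16 to 19 peaks, 28 to 32 footprints, 1.62 to 3.0 and 12.2 to 13.2. Apart from the counts of peaks centred in the gene, Lhcgr was above Fshr in each pair of values given here. With 2 libraries and no depth, sites open in 1 library alone cannot be told apart from sites missed in the other.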

Other observations

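The pathway genes without a promoter peak were not all without open sites assigned to them. The rule sets no limit on distance, so such sites need not lie near the gene. By the assignment rule used for the receptors, Cga had 8 sites open in both libraries, Rxfp2 had 6, Rxfp1 had 5, Fshb had 3 and Tshb had 1. Lhb had none, and the median protein-coding gene had 2. Among the regulators of the receptor promoters the count reached 41 at Nr2f2, the orphan receptor COUP-TFII, 26 at Foxo1 and 25 at Nr5a2, against 12 at Lhcgr and 4 at Fshr.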
